A study of Homo sapiens with 4 samples.

Results

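The annexin and S100 genes are a pair of calcium-binding protein families whose members work together at the cell membrane. They were taken from the expression table by gene symbol, as every annexin written ANXA plus a number and every S100 gene written S100A plus a number or S100B, S100P, S100G or S100Z. The rule found 31 of the 58365 rows, of which 12 were annexins and 19 were S100 genes. Symbols of pseudogenes and of numbered copies were outside the rule. RNA sequencing was performed on H1 cells, an established line of human embryonic stem cells, at day 2 of hematopoietic differentiation. All libraries came from cells grown in Custom mTeSR1 medium with 40 ng/ml activin A and 50 ng/ml BMP4, as the labels give the doses, a pair of growth factors that starts mesoderm commitment. The methods text of the study has these doses exchanged between the factors, and which order is right was not settled here. The 2 DMSO libraries came from cells without IWP2, and the 2 IWP2 libraries from cells treated with IWP2, a small molecule that blocks the secretion of Wnt proteins, at a dose that the labels do not give. The comparison asks how these transcripts differ when the cells of the same culture cannot supply one another with Wnt. The labels do not say whether the replicates were separate cultures, so the p-values measure the spread between these libraries, which may be technical.

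Annexins bind negatively charged phospholipids when calcium rises, and they link membranes to the actin cytoskeleton, to vesicles and to sites of membrane repair. S100 proteins are small EF-hand proteins that usually form dimers and, on binding calcium, expose a surface that holds a target protein. Several S100 dimers hold an annexin: S100A10 holds ANXA2, S100A11 holds ANXA1, and S100A6 can hold ANXA2 and ANXA11. Most S100A genes lie in a single cluster on the long arm of chromosome 1, beside genes of the epidermal barrier, and S100A4 is widely used as a marker of mesenchymal cells.

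Values are FPKM, fragments scaled to transcript length and library size, so levels can be compared between genes. The table holds no read counts. The steps between its lowest values put DMSO-1 at 1.13 times the depth of DMSO-2 and IWP2-1 at 1.17 times that of IWP2-2, and the absolute depth is unknown. On the log2(FPKM + 1) scale, Pearson's r across genes was 0.972 between the DMSO libraries, 0.980 between the IWP2 libraries, and 0.927 to 0.938 between the groups. Of 10 targets of Wnt signaling, 8 fell with IWP2. Marker genes of the cell states moved as well, and of all genes tested 8.44% fell and 6.75% rose. Several, among them SOX2, MESP1, HHEX and RUNX1, were under 1 FPKM in 1 group and passed the expression filter only through the other. All 8 genes of nascent mesoderm fell, from a summed level of 907 to 1139 FPKM in DMSO to 49.6 to 53.7 FPKM in IWP2. Of 5 definitive endoderm genes, 4 fell. The sum over all 5 was 259 to 306 FPKM in DMSO and 87.6 to 103 FPKM in IWP2. SOX17 was the gene that did not pass (adjusted p = 0.152, limma). It held most of the IWP2 sum, at 79.7 FPKM and 94.9 FPKM, against 155 FPKM and 104 FPKM in DMSO. Of 8 pluripotency genes, 5 rose and 1 fell (1299.6 to 1567 FPKM in DMSO, 2976 to 3049 FPKM in IWP2). POU5F1 was the largest part of that sum (mean 661 FPKM in DMSO, 1849 FPKM in IWP2). TDGF1 was the gene that fell (mean 212 FPKM in DMSO, 101 FPKM in IWP2). Of 8 tested amnion or trophoblast genes 3 rose and 1 fell (summed list 109 to 119 FPKM in DMSO, 148 to 153 FPKM in IWP2). KRT7 and GABRP, which rose, passed the filter only through their IWP2 libraries, and CDX2, which fell, only through its DMSO libraries. TFAP2C, which did not pass the test, was the largest part of that sum in IWP2 (mean 25.3 FPKM in DMSO, 53.7 FPKM in IWP2). GRHL3 was the only surface ectoderm gene above the expression filter and it rose, while KRT5 and KRT14 were at 0 in all 4 libraries. The 4 neuroectoderm genes stayed at or below 1.33 FPKM, KDR and RUNX1 fell as the only tested genes of endothelium and blood, and TAGLN rose as 1 of 3 tested genes of fibroblasts and smooth muscle. The part of these shifts in cell state in the annexin and S100 results was not tested, and in bulk RNA fewer cells that express a gene cannot be told apart from less of its RNA per cell.

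With IWP2, 4 annexins fell (ANXA2, ANXA6, ANXA1 and ANXA4), 1 annexin rose (ANXA9) and 3 S100 genes fell (S100A10, S100A6 and S100A4). The test was limma on log2(FPKM + 1) across 14022 genes with a mean of at least 1 FPKM over the 4 libraries, and a gene was taken to rise or fall at a Benjamini-Hochberg adjusted p under 0.05. The filter was passed by 9 of 12 annexins and by 8 of 19 S100 genes. Together 7 of these 17 genes fell, against 8.44% of all genes tested, and 1 of 17 rose, against 6.75%. In either direction 5 of 9 annexins and 3 of 8 S100 genes passed, against 15.2% of all genes. The 1 rise and the annexin count include ANXA9, which passed the expression filter only through its IWP2 libraries. Its place among the tested genes thus depends on the group where it is high. No S100 gene rose at the adjusted threshold in limma, nor at an unadjusted p under 0.05, where the number was 0. The median log2 difference was -0.19 for the 9 annexins and -0.89 for the 8 S100 genes, beside -0.02 for all genes tested. Without IWP2-1 or without IWP2-2, the same test called 1 annexin, ANXA6, and 0 S100 genes at the adjusted threshold, against 2.1% and 1.7% of all genes. At an unadjusted p under 0.05 these fits had 5 or 6 annexins and 3 or 5 S100 genes, against 20.8% and 20.1% of all genes. With no expression filter it called 1 annexin and 0 S100 genes, against 1.32% of all genes, and 6 annexins and 5 S100 genes were under 0.05 unadjusted, against 19.8%.

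**Figure D1:**
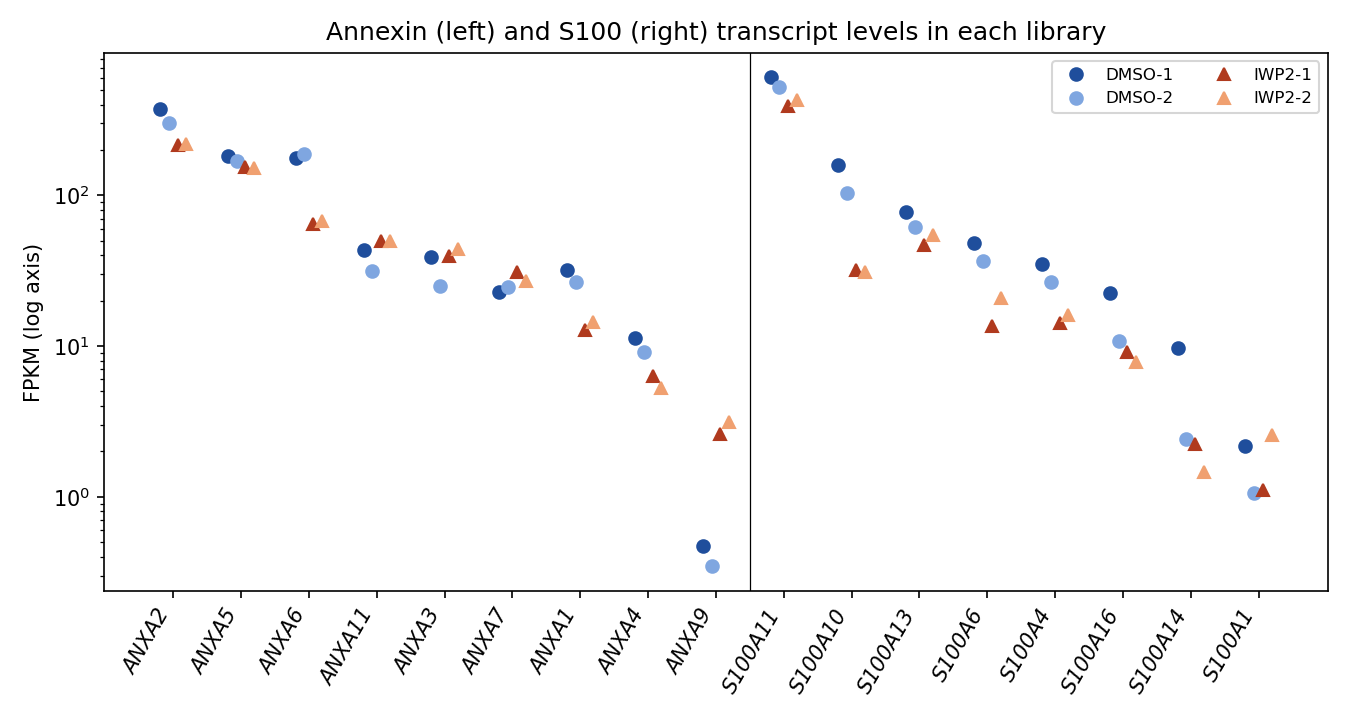
FPKM (log axis) of the 17 annexin and S100 genes that passed the expression filter, 1 point per library, with circles for DMSO and triangles for IWP2. The largest separations are at ANXA6, ANXA9 and S100A10, while the triangles lie above the circles for ANXA11, ANXA3, ANXA7 and ANXA9.

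S100A10, the S100 protein that is held in its active shape without calcium and that carries ANXA2 to the plasma membrane, had the largest difference of the 17 tested genes on the log2(FPKM + 1) scale, while ANXA9 had the larger ratio of means and the larger difference with a pseudocount of 0.1 (2.55 against -2.01). It is at chr1:151982915-151994390 on the minus strand (GRCh38). Its level was 158 FPKM in DMSO-1, 103 FPKM in DMSO-2, 32.2 FPKM in IWP2-1 and 31.2 FPKM in IWP2-2. Both IWP2 libraries lay far below both DMSO libraries, and the mean was 4.11 times higher in DMSO. The log2 difference was -1.97 (SE 0.20, adjusted p = 0.00481, limma, n = 2 per group).

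ANXA2, its binding partner, is the most abundant annexin of these cells (chr15:60347134-60402883, minus strand). It read 373 FPKM and 304 FPKM in DMSO against 214 FPKM and 221 FPKM in IWP2. The groups did not overlap, and the fall of 0.63 on the log2 scale (SE 0.12, adjusted p = 0.0257, limma, n = 2 per group) was smaller than that of S100A10. ANXA2 lost its call in 5 of the alternative settings. These were the fits without DMSO-1 (log2 difference -0.48), without IWP2-1 (-0.61) and without IWP2-2 (-0.65). The others were limma without the variance trend (adjusted p = 0.0525) and limma with no expression filter (adjusted p = 0.127). The level of ANXA2 over that of S100A10 was 2.36 in DMSO-1, 2.96 in DMSO-2, 6.66 in IWP2-1 and 7.08 in IWP2-2. This ratio is a description of the 4 libraries, and an exact permutation test of 2 against 2 could not reach the threshold. Reads of ANXA2 can be shared with its processed pseudogenes, of which ANXA2P2 was the highest at 2.68 to 3.66 FPKM.

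ANXA6, the only annexin built from a doubled set of repeats and a scaffold for membrane and cholesterol traffic, had the smallest adjusted p of either family. It lies at chr5:151100712-151157882 on the minus strand. Its level was 176 FPKM and 187 FPKM in DMSO and 64.9 FPKM and 67.1 FPKM in IWP2, so that the replicates of each group lay close together and the groups far apart. The mean was 2.75 times higher in DMSO, and the log2 difference was -1.44 (SE 0.08, adjusted p = 0.000831, limma, n = 2 per group). It was the only annexin or S100 gene that kept its call under each alternative tried. The level of ANXA5 was close to that of ANXA6 in DMSO, with ratios of 1.04 and 0.897, and in IWP2 it was 2.37 and 2.28 times that of ANXA6.

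ANXA1, an inhibitor of phospholipase A2 and a mediator of the resolution of inflammation, fell by 1.05 on the log2 scale (SE 0.13, adjusted p = 0.00733, limma, n = 2 per group). It lies at chr9:73151757-73170393 on the plus strand. It read 31.8 FPKM and 26.8 FPKM in DMSO against 12.7 FPKM and 14.4 FPKM in IWP2, without overlap. Its partner S100A11 moved less, and ANXA1 stood at 0.053 and 0.052 of the level of S100A11 in DMSO and at 0.033 in both IWP2 libraries. ANXA4, an annexin of secretory and epithelial membranes at chr2:69644425-69827100, read 11.3 FPKM and 9.19 FPKM in DMSO and 6.34 FPKM and 5.25 FPKM in IWP2. Its fall of 0.73 on the log2 scale (SE 0.15, adjusted p = 0.0363, limma, n = 2 per group) lost its call when any 1 library was left out, with adjusted p between 0.0743 and 0.228 and log2 differences of -0.59 to -0.87. ANXA4 also overlaps AAK1 on the opposite strand, and the library kit named in the labels does not keep the strand.

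ANXA9 went the other way. This annexin, whose repeats lack the usual calcium-binding residues, is at chr1:150982017-150995634 on the plus strand. It was low throughout, at 0.473 FPKM and 0.345 FPKM in DMSO and 2.60 FPKM and 3.14 FPKM in IWP2. Its mean was 7.02 times higher in IWP2, and its log2 difference of 1.46 (SE 0.19, adjusted p = 0.0091, limma, n = 2 per group) understates that ratio because 1 FPKM was added to each value. ANXA9 passed the expression filter only through its IWP2 libraries.

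The remaining 4 annexins above the filter did not pass the test. ANXA5, the phosphatidylserine binder used to stain dying cells, was abundant in both groups, with means of 175 FPKM in DMSO and 153 FPKM in IWP2 and a 95% interval of the log2 difference from -0.40 to 0.02. ANXA11, which tethers RNA granules to lysosomes, had means of 37.4 FPKM and 49.8 FPKM, and its interval ran from 0.01 to 0.83 (adjusted p = 0.157, limma). ANXA3 had means of 32.0 FPKM and 41.8 FPKM (interval -0.13 to 0.94), and ANXA7, an annexin of secretory granules, had 23.8 FPKM and 28.8 FPKM (interval -0.01 to 0.54). The last 3 were each higher in both IWP2 libraries than in either DMSO library. Without DMSO-1, the adjusted p of ANXA11 was 0.0374 (log2 difference 0.65) and that of ANXA3 was 0.0470 (log2 difference 0.71). Without DMSO-2 the differences shrank to 0.19 for ANXA11 (adjusted p = 0.277) and 0.10 for ANXA3 (adjusted p = 0.622). The intervals do not show that these genes were equal between the groups.

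**Figure D2:**
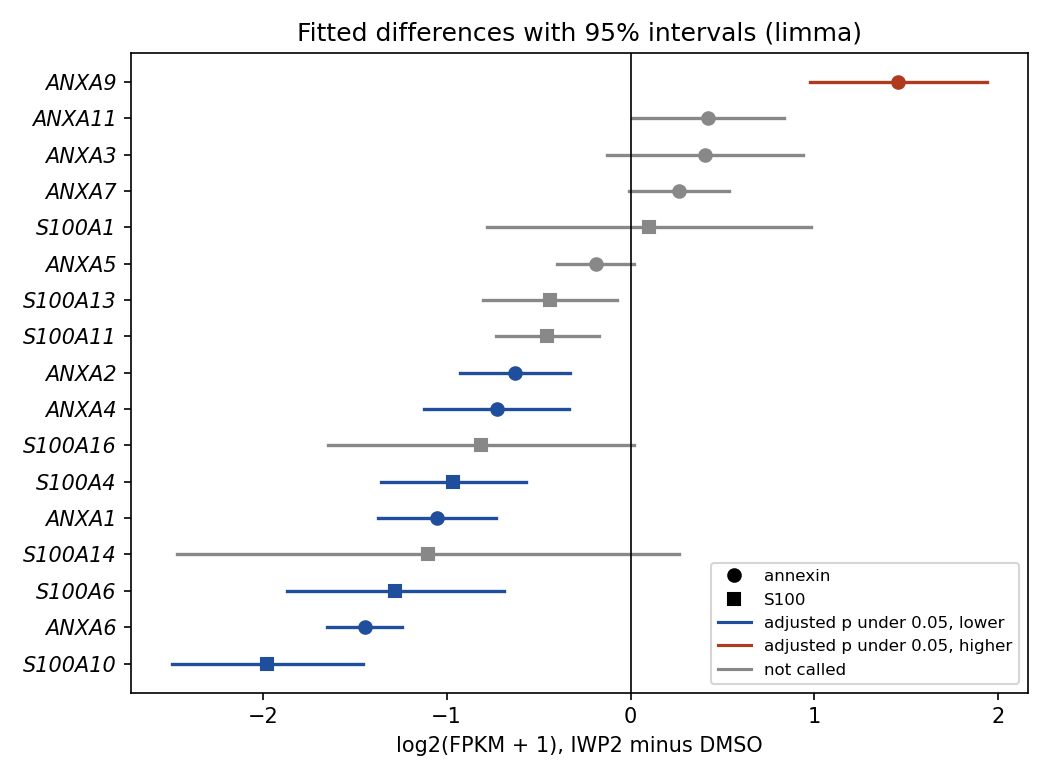
Fitted log2 differences (IWP2 minus DMSO, log2(FPKM + 1)) of the 17 genes with 95% intervals from limma, ordered by size, with circles for annexins and squares for S100 genes. Blue and red mark genes that fell or rose at an adjusted p under 0.05, from -1.97 for S100A10 to 1.46 for ANXA9.

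S100A6, a calcium sensor of proliferating cells also called calcyclin, is at chr1:153534599-153536244 on the minus strand. It read 48.2 FPKM and 36.6 FPKM in DMSO against 13.5 FPKM and 20.8 FPKM in IWP2. The groups did not overlap, although the replicates of each were spread, and the mean was 2.48 times higher in DMSO. The log2 difference was -1.28 (SE 0.23, adjusted p = 0.0239, limma, n = 2 per group), and it lost its call when any 1 library was left out, with adjusted p between 0.0689 and 0.127 and log2 differences of -0.98 to -1.57.

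S100A4, which binds non-muscle myosin and is a common mesenchymal marker, lies beyond S100A5 at chr1:153543613-153550136. It read 34.9 FPKM and 26.5 FPKM in DMSO and 14.3 FPKM and 16.0 FPKM in IWP2, again without overlap. The mean was 2.03 times higher in DMSO, and the log2 difference was -0.96 (SE 0.15, adjusted p = 0.0165, limma, n = 2 per group). The gene model of S100A3 lies inside that of S100A4 on the same strand, and S100A3 itself stayed between 0 and 0.679 FPKM.

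The most abundant S100 transcript was S100A11, a partner of ANXA1 in membrane repair, at 605 FPKM and 519.8 FPKM in DMSO and 390.4 FPKM and 430.2 FPKM in IWP2. Both IWP2 libraries were below both DMSO libraries, but the log2 difference of -0.45 (SE 0.11, adjusted p = 0.0534, limma, n = 2 per group) just missed the threshold. It crossed the threshold when the libraries were scaled to the same FPKM sum (adjusted p = 0.0249) and when the filter was raised to a mean of 5 FPKM (adjusted p = 0.0452). In the other 10 settings it did not, with adjusted p from 0.0507 to 0.258. S100A13, which takes part in the export of FGF1, had means of 69.6 FPKM and 50.9 FPKM and an interval from -0.80 to -0.07 (adjusted p = 0.110, limma). S100A1, a calcium sensor of heart muscle, overlaps S100A13 on the opposite strand. Reads in the overlap may not be assignable, and whether exons of these genes overlap was not checked. ANXA2, ANXA7, S100A6 and S100A11 also overlap annotated genes on the opposite strand. S100A1 read 2.18 FPKM and 1.06 FPKM in DMSO against 1.11 FPKM and 2.58 FPKM in IWP2, and it was the only 1 of the 17 genes whose groups overlapped. Over all genes tested, the groups also lay apart often, with IWP2 below for 31.9% and above for 27.9%.

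S100A16 and S100A14, close neighbours that are both expressed in epithelia, were far apart between the DMSO replicates. S100A14 read 9.66 FPKM in DMSO-1 and 2.43 FPKM in DMSO-2, against 2.24 FPKM and 1.45 FPKM in IWP2. S100A16 read 22.3 FPKM and 10.7 FPKM in DMSO against 9.11 FPKM and 7.79 FPKM. In both genes DMSO-2 was nearer to the IWP2 libraries than to DMSO-1. The adjusted p was 0.246 for S100A14 (interval -2.47 to 0.26) and 0.174 for S100A16 (interval -1.64 to 0.02) in limma. Without DMSO-2 the values were 0.0352 and 0.0308, with log2 differences of -1.92 and -1.31. Without DMSO-1 the adjusted p was 0.513 for S100A14 and 0.285 for S100A16, with log2 differences of -0.28 and -0.31.

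This order of the DMSO replicates was shared. DMSO-1 was above DMSO-2 for all 8 S100 genes and for 7 of 9 annexins that passed the filter, while 49.9% of all genes tested were higher in DMSO-1. The exceptions were ANXA6 and ANXA7. The DMSO libraries also differed in the markers of cell state, with summed pluripotency markers at 1567 FPKM in DMSO-1 and 1299.6 FPKM in DMSO-2 and summed nascent mesoderm markers at 907 FPKM and 1139 FPKM. POU5F1 was the largest part of the pluripotency sum (751 FPKM in DMSO-1, 571 FPKM in DMSO-2). TDGF1 (203 and 221 FPKM) and DNMT3B (83.9 and 92.2 FPKM) went the other way. T was the exception among the mesoderm markers (21.6 and 18.5 FPKM). Summed definitive endoderm markers were higher in DMSO-1 (306 and 259 FPKM). That excess was carried by SOX17 (155 FPKM in DMSO-1, 104 FPKM in DMSO-2). CXCR4 and FOXA2 were also higher in DMSO-1, while GATA6 (119 and 134 FPKM) and HHEX were lower there. The part of these differences in the spread of the S100 genes was not tested.

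Of the 12 genes that lay below in both IWP2 libraries, 7 were S100 genes and 5 were annexins, and 4 annexins lay above. For all genes tested these shares were 31.9% below and 27.9% above. Summed over the family, annexin transcripts were at 880 FPKM and 776 FPKM in DMSO and 576 FPKM and 584 FPKM in IWP2. The S100 sum was 962 FPKM and 764 FPKM against 512 FPKM and 565 FPKM. Within the annexin sum, ANXA6 took 20.0% and 24.1% in DMSO and 11.3% and 11.5% in IWP2, while ANXA5 went from 20.7% and 21.6% to 26.7% and 26.1%. Within the S100 sum, S100A10 took 16.4% and 13.5% in DMSO and 6.29% and 5.52% in IWP2. S100A11 took 62.9% and 68.0% in DMSO and 76.3% and 76.2% in IWP2. Both sums were lower in IWP2, and ANXA5 and S100A11 took larger shares of them.

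**Figure D3:**
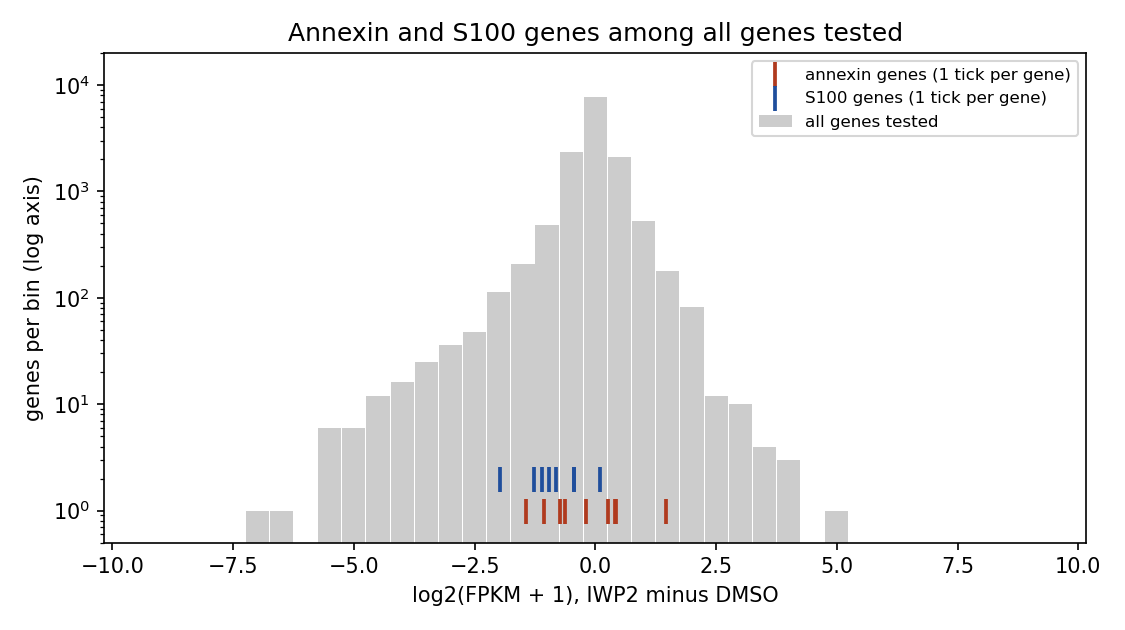
Number of genes (log axis) in bins of the log2 difference between IWP2 and DMSO for all 14022 genes tested (grey bars), with 1 tick for each annexin (red) and S100 gene (blue). The S100 ticks lie mostly left of 0, with a median of -0.89, and the annexin ticks on both sides, with a median of -0.19.

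The 14 members below the filter were 3 annexins and 11 S100 genes, and 5 of them were at 0 in every library (ANXA10, S100A5, S100A7, S100A8 and S100G). S100Z, the relative of S100P on chromosome 5, stood out among these low genes. It read 2.72 FPKM in DMSO-1 and 0.948 FPKM in DMSO-2, and 0.0327 FPKM and 0.0381 FPKM in IWP2. The last 2 values differed by -0.22 on the log2 scale, the same as the step between the IWP2 libraries, as the same number of reads in both would give. S100Z was tested only in the fit without a filter, with a log2 difference of -1.38 (SE 0.38, adjusted p = 0.197, limma). ANXA8 went from 0.0539 FPKM and 0.109 FPKM in DMSO to 0.451 FPKM and 0.484 FPKM in IWP2 (adjusted p = 0.0748 in the same fit), and it shares reads with its near-identical copy ANXA8L1, which was at 0.255 to 0.441 FPKM and 1.02 to 1.36 FPKM. S100A2, S100A3, S100A9, S100A12, S100B, S100P and ANXA13 stayed between 0 and 1.01 FPKM in all 4 libraries. S100A8, S100A9 and S100A12, the calgranulins of myeloid blood cells, were thus at 0 or below 0.491 FPKM at this stage.

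The stretch of chromosome 1 from S100A10 to S100A1 spans 1649 kb (chr1:151982915-153632039) and holds 87 rows of the table, 15 of them S100A genes taken by the rule. Of these 87 rows only 8 passed the expression filter, and all 8 were S100A genes. The S100-fused barrier genes between them (FLG, FLG2, TCHH, TCHHL1, HRNR, RPTN and CRNN) were at or near 0, with a highest value of 0.0131 FPKM. These 8 are the same 8 S100 genes that were tested above, so counts over the cluster restate those of the family and add no separate result. Across the cluster 3 of the 8 fell, against 8.44% of all genes tested, and 7 of the 8 had a fitted difference below 0, against 52.4%. Of the 5 nearest tested genes before S100A10, none fell or rose (log2 differences from -0.56 to 0.21). Of the 5 after S100A1, NPR1 rose by 0.84 and none fell (lowest difference -0.14). At an unadjusted p under 0.05 in limma, the flanking genes added THEM4, with a difference of -0.56, and INTS3, with 0.27.

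**Figure D4:**
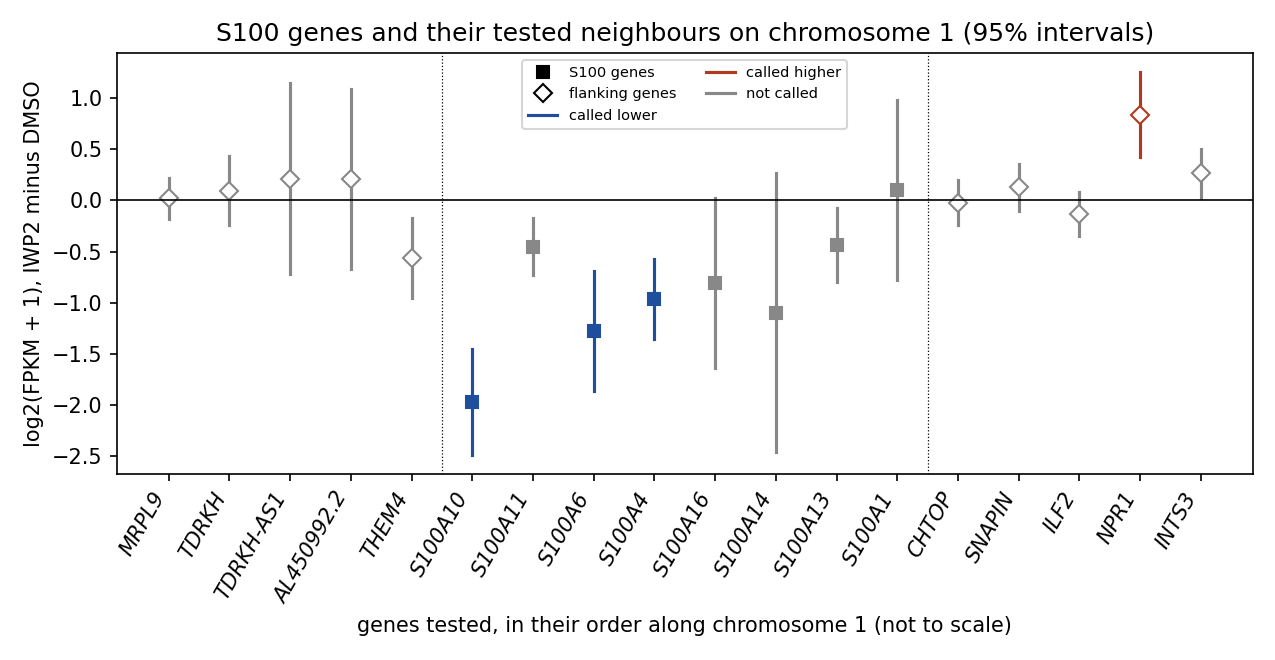
Log2 differences (IWP2 minus DMSO) with 95% intervals of the 8 tested S100 genes (filled squares) and of the 5 nearest tested genes on each side (open diamonds), in their order along chromosome 1. The squares run from -1.97 for S100A10 to 0.10 for S100A1, and the diamonds from -0.56 to 0.84.

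Promoters were taken from RefSeq (GRCh38.p14), in which all 17 tested members had at least 1 window. The 250 bases before each start site were searched on both strands for 6 short motifs. The first TCF/LEF spelling, for the factors that act with beta-catenin, is CTTTGAT. The second TCF/LEF spelling is CTTTGTT. The third TCF/LEF spelling is CTTTGAA, and other spellings were not searched. The GC box was searched as GGGCGG. The AP-1 site was searched as TGACTCA. The TATA box was searched as TATAAA. The 7 genes that fell had 9 windows. None of the 9 held the first or the third TCF/LEF spelling, which 2.26% and 3.8% of all 35116 windows held, and 1 of 9, that of ANXA1, held the second, against 4.5%. The GC box letters were in 6 of 9 windows, against 42.6% of all. The TATA box letters were in 3 of 9 windows (ANXA2, ANXA1 and S100A4), against 10.7%, and the AP-1 letters in 1 of 9, against 4.2%. None of these TATA box letters, nor the GC box of ANXA6, lies wholly in the bases printed below. No pair of different motifs overlaps in the stretches printed here. These are descriptions of the letters in short windows and locate no binding.

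The upstream stretches below belong to the genes that fell and whose window lies largely outside annotated exons, and they show the range from a GC-rich promoter to an A and T rich one. The bases nearest to the start site, which GENCODE places in exons, are left out, and capitals mark the searched letters. The GC box occurs as 3 tandem copies, each sharing its last base with the next, in ANXA2, and its AP-1 letters are read on the other strand.
ANXA2 (chr15:60398044-60398236, minus strand): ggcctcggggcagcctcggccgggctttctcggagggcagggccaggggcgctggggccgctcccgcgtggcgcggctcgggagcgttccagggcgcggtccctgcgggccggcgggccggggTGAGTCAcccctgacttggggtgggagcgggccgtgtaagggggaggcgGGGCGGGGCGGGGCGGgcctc
ANXA1 (chr9:73151615-73151756, plus strand): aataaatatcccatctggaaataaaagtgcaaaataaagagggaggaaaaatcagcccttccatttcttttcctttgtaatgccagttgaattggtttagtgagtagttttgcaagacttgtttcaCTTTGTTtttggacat
ANXA6 (chr5:151157883-151158029, minus strand): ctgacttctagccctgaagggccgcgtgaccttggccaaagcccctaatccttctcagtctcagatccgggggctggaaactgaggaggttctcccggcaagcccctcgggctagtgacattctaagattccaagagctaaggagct
S100A4 (chr1:153545886-153546056, minus strand): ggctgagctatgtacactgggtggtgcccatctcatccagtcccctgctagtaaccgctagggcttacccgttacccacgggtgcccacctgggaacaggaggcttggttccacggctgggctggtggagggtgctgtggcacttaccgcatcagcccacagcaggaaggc
The TCF/LEF letters of ANXA1 start 124 bases before the start site. The windows of S100A10 and S100A6 lie wholly in exons of longer transcripts, and those of ANXA4 mostly, and they are not shown.

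A list of 23 other partners and receptors of the 2 families was examined next. Of these genes 17 were tested, and 4 rose, against 6.75% of all genes. In limma 0 fell at the adjusted threshold and 2 were lower at an unadjusted p under 0.05, and the median log2 difference was 0.14. EZR, which links actin to the membrane and binds S100P, rose from 82.2 FPKM and 80.6 FPKM to 136 FPKM and 141 FPKM (log2 difference 0.76, SE 0.08, adjusted p = 0.00451). GCA, an EF-hand protein of granules, rose by 0.70 and DYSF, the membrane repair protein dysferlin, by 0.79. AHNAK, the large scaffold held by ANXA2 with S100A10, had a log2 difference of -0.03, and CACYBP, which binds S100A6, 0.23; neither passed. FPR1 and FPR2, the receptors of ANXA1, were at 0 in all 4 libraries.

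Among 16 tested EF-hand calcium sensors outside the S100 family, 2 fell and 1 rose, with a median of -0.05. These 3 of 16 are a share near the 15.2% of all genes tested. CALM3, a calmodulin gene, fell from 497 FPKM and 568 FPKM to 283 FPKM and 270.5 FPKM (log2 difference -0.94, SE 0.10, adjusted p = 0.00475, limma), while CALM2, which encodes the same protein, differed by -0.12 and did not pass. CIB1 fell by 0.60 on the log2 scale and HPCAL1 rose by 1.01. Among 13 tested membrane-binding proteins with C2 domains, another calcium-dependent fold, SYT1 fell by 0.75 and SYT7 rose by 1.84, and the median was 0.14. These 2 of 13 are again near the share of all genes. For these lists the counts were 9 genes in all, beside 15.2% of all genes tested, and 1 with no expression filter, beside 1.32%. When any 1 library was left out, fewer genes of the lists were called, and also fewer of all genes tested.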

How the data were processed

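RNA was taken with Trizol and TruSeq libraries were made from total RNA, per the labels. The submitters' processing notes name BWA, Bowtie and RSEM, without versions, and the hg19 build. The FPKM values were deposited by the authors as 1 table with 4 columns. The header names no unit and marks each library as without (-) or with (+) IWP2 and by a number, used here as its name. Gene positions in it matched GRCh38 (97.3% of 58057 shared gene IDs had the same start and end as in GENCODE release 29), so GRCh38 is used here.

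log2(FPKM + 1) was fitted with limma 3.58.1 in R 4.3.3 (eBayes with a variance trend) over genes with a mean of at least 1 FPKM, with no replicate block, two-sided, and Benjamini-Hochberg adjustment over all 14022 genes. The code was tested on simulated data. FPKM is not a count, so no count test was run. Depth is unknown, and the relative depth came from the commonest ratio of values under 0.5 FPKM. Alternatives changed the pseudocount, the filter, the scaling, the variance trend, the libraries and the block. All members were accounted for: those above the filter by value, the others in groups, and of each related list the genes that passed, at most 4. Values of 2 genes of the related lists are not reported here, and the counts over the lists include them. The members and lists were chosen with earlier results of these data known.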

Additional observations from a re-analysis of the deposited data

How the results depend on the processing

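In all, 12 settings were tried. With no expression filter, which adds many low genes to the adjustment and to the variance trend, the calls were 1 annexin, 0 S100 genes (5 at an unadjusted p under 0.05 in limma), 381 genes in all, 1 gene of the related lists and 5 Wnt targets. When 1 library was left out, so that the lone library of a group was assumed to vary like the other group, the calls ranged from 1 to 5 for annexins, 0 to 4 for S100 genes (3 to 7 unadjusted), 238 to 1375 for all genes, 0 to 5 for the related lists (11 to 15 unadjusted) and 4 to 8 for Wnt targets. With the replicate block the calls were 5 annexins, 3 S100 genes and 1927 genes in all, and no annexin or S100 gene gained or lost its call. The correlation of the deviations of same-numbered libraries was 0.152, which does not establish a pairing for 2 pairs. The log2 difference of S100A1 changed sign when 1 library was left out, to -0.22 without DMSO-2 and -0.28 without IWP2-2 (0.48 without IWP2-1). Of the other comparisons of single genes with their main value, 166 stayed on the same side of the threshold, 27 lost and 6 gained a call. ANXA9, S100A14 and S100A1 could not be fitted at a mean of 5 FPKM. The depth of each library is unknown, so counting error cannot be set on genes near 0.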

Other observations

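Some genes with related names fall outside the rule. ANXA2R, which encodes a receptor proposed for ANXA2, read 1.38 FPKM and 1.08 FPKM in DMSO against 0.392 FPKM and 0.458 FPKM in IWP2. The pseudogene ANXA2P2 read 3.66 FPKM and 3.41 FPKM against 2.75 FPKM and 2.68 FPKM, and it did not pass the test. S100A7A, S100A11P1 and S100A11P2 were at 0 in all 4 libraries.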
